A study of Homo sapiens with 267 samples.

Results

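A set of 10 genes of cellular iron handling were followed in K562 cells, a human erythroleukaemia line whose fetal and embryonic globin genes are active. They cover uptake (TFRC, SLC11A2, STEAP3), storage and chaperoning (FTH1, FTL, NCOA4, PCBP1), transfer into mitochondria (SLC25A37) and sensing (IREB2, ACO1). The members were the rows of the count table whose Ensembl identifiers map to these 10 symbols, of 63677 genes in all. Each of the 10 matched 1 row, and 9 held reads.

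Libraries were made from cells captured on the Fluidigm C1 system and, by the study's methods, from bulk RNA of the same cells prepared outside it, and they fell into 5 groups by the labels of stain and drug. All carried the same line, CCL-243. The Hoechst run (96 libraries, passages 90 to 92) was stained with Hoechst at 2 µM and propidium iodide at 3.75 µM for 20 min and had no drug. The benzene run (passages 20 to 22) held cells stained with CellTracker Green at 1 µM for 30 min and untreated (38 libraries), and cells stained with CellTracker Orange at 1 µM for 30 min and given 10 mM benzene for 3 h (37 libraries). The imatinib run (passages 20 to 22) held untreated CellTracker Green cells (51 libraries) and CellTracker Orange cells given 1 µM imatinib, an inhibitor of the BCR-ABL kinase, for 1 h (45 libraries). Both CellTracker runs also had the LIVE/DEAD Fixable Red stain. The passage field of the labels gives its numbers in hours. Stain colour and drug cannot be told apart in either CellTracker run. Nor can stain, passage and run across the 3 runs. By the study's account, its Hoechst-stained experiment used a different lot of K562 cells from its CellTracker experiments. Dead cells were sequenced in the former and left out of sequencing in the latter. Cell lot and dead cells therefore cannot be told apart from run either. The study set fresh cells beside cells fixed with DSP, a reversible cross-linker, and captured some days later, so a group can span several captures and storage times. Whether a library held a fresh or a fixed cell, bulk RNA or an empty site was not mapped to libraries. How fixation divided between Green and Orange cells is therefore not known here, and its part in any difference between them was not tested. The labels name no separate cultures within a group, so libraries are not counted as replicates of a condition, no p-value is given, and the SD given with a level is that over libraries of all these kinds.

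Counts were matched to 263 of the 267 labelled libraries, with 36 Green and 35 Orange libraries in the benzene run. Where the top 500 genes of a library took over 70% of its reads the library was excluded, which kept 82 in the Hoechst run, 31 and 34 in the benzene run (Green and Orange) and 50 and 45 in the imatinib run. The 242 libraries kept had 50358 to 2043351 reads on genes, with 2871 to 12134 genes detected, meaning more than 2 reads. Median mitochondrial shares of reads were 12.4% in the Hoechst run and 6.21% to 7.02% in the CellTracker groups. The median share of spike-in (ERCC) reads was 3.88% and 4.23% in the benzene run against 7.61% and 8.48% in the imatinib run and 5.43% in the Hoechst run. Of 12 K562 markers, 11 were detected in over 50% of these libraries. Of 16 markers of other cell types with rows in the table, 9 were detected in under 5% and 5 in none, among them FCN1, VWF and CDH5. The 5 detected in 50% or more were KRT8, KRT18, EPCAM, LYZ and CD3D.

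Cells take up transferrin-bound iron through the transferrin receptor, reduce it in the endosome and export it to the cytosol, where it is used, passed to mitochondria for heme and iron-sulphur clusters, or stored inside the ferritin shell. Iron regulatory proteins bind hairpins called iron-responsive elements in untranslated regions of messenger RNAs when iron is scarce. Binding in the 5′ region of ferritin messages blocks their translation, and binding in the 3′ region of the transferrin receptor message protects it from decay. Erythroid cells are known for high transferrin receptor and high mitochondrial iron import. These libraries measured RNA levels, so translation was not measured.

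The elements are shown because they tie the 2 ferritin messages and the transferrin receptor message to the sensing proteins in sequence. Annotated untranslated regions (GENCODE v44lift37, GRCh37) were searched for a C, 5 bases, the loop CAGTGN and 5 bases that pair with those before the loop, with G-T pairs allowed. Among the members FTH1 and FTL had 1 match each in the 5′ region, and TFRC had 4 in the 3′ region, given here 5′ to 3′ in the order of transcription with the fixed bases CAGTG of the loop in capitals.
FTH1, 5′ region, chr11:61735052-61735068, minus strand: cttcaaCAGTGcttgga
FTL, 5′ region, chr19:49468598-49468614, plus strand: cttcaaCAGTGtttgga
TFRC, 3′ region, chr3:195777856-195777872, minus strand: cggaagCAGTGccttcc
TFRC, 3′ region, chr3:195777452-195777468, minus strand: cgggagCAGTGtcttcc
TFRC, 3′ region, chr3:195777387-195777403, minus strand: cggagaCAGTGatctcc
TFRC, 3′ region, chr3:195777340-195777356, minus strand: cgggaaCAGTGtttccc
Such a match was found in the 5′ region of 36 of 19282 genes (0.187%) and in the 3′ region of 142 of 19704 (0.721%). A match is a description of letters, and a member without one only lacks these letters in the regions searched.

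FTL (ENSG00000087086, chr19:49468566-49470136), the light chain of ferritin, was the highest member in all 5 groups. Levels are in CPM, reads per 1000000 reads on genes. The lowest, median and highest FTL levels over libraries were 1635, 4399 and 16067 CPM in the Hoechst run, 3187, 6371 and 20074 CPM in benzene run Green, and 4607, 7802 and 15892 CPM in benzene run Orange. They were 1019, 5389 and 10728 CPM in imatinib run Green and 2547, 5866 and 10659 CPM in imatinib run Orange. By summed reads FTL stood between rank 4 and rank 12 of all genes, with 0.491% to 0.798% of a group's reads. It was detected in every library kept, and its SD of log2(CPM + 1) of 0.39 to 0.65 was the smallest of the members in each group.

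FTH1 (ENSG00000167996, chr11:61727190-61735106), the heavy chain that oxidises iron for storage, was counted at far lower levels. Its lowest, median and highest levels were 0, 46.9 and 455 CPM in the Hoechst run, 31.2, 136 and 789 CPM in benzene run Green, and 26.9, 136 and 644 CPM in benzene run Orange. In the imatinib run they were 16.6, 135 and 732 CPM (Green) and 18.9, 76.7 and 535 CPM (Orange). The Hoechst median lay below the other 4, with overlapping ranges. FTH1 reads were fewer than FTL reads in every one of the 240 libraries with reads of both genes. The median log2 ratio of FTH1 to FTL reads per library was −6.68 ± 2.01 (SD, n = 80) in the Hoechst run, −5.71 ± 1.15 (SD, n = 31) in benzene run Green, −6.17 ± 1.34 (SD, n = 34) in benzene run Orange, −5.61 ± 1.29 (SD, n = 50) in imatinib run Green and −6.41 ± 1.32 (SD, n = 45) in imatinib run Orange. These medians differed from each other by less than the SD over libraries in each group.

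The FTH1 level is uncertain because only reads with a single place in the genome were counted. Of the 1129 windows of 75 bases in the main FTH1 transcript, 380 (33.7%) had an exact copy elsewhere in GRCh37, against 93 of 797 (11.7%) for FTL, 1.07% for SLC25A37, 0.0136% for ACO1 and 0 windows for TFRC, SLC11A2, STEAP3, PCBP1 and IREB2. The 25 annotated FTH1 pseudogenes held 33080 reads, which equals 73.7% of the 44881 reads on FTH1 itself. The 3 with the most reads were FTH1P7 (7524 reads), FTH1P2 (7288 reads) and FTH1P8 (3295 reads). The 16 FTL pseudogenes held 38858 reads, 2.03% of the 1914491 reads on FTL. How many reads of either chain were left out as not unique was not tested. FTH1 also overlaps BEST1 on the opposite strand, and reads on the shared bases cannot be told apart without strand. In the annotation used here PCBP1, STEAP3 and TFRC likewise overlap long noncoding RNA genes on the opposite strand. The study's read summary had a class for ambiguous mapping, and how many reads of these members fell in it was not tested.

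PCBP1 (ENSG00000169564, chr2:70314609-70316335), a chaperone that hands iron to ferritin, had lowest, median and highest levels of 24.3, 116 and 586 CPM in the Hoechst run. The corresponding levels were 0.752, 126 and 1696 CPM in benzene run Green and 2.56, 92.9 and 489 CPM in benzene run Orange. They were 4.15, 159.9 and 423 CPM in imatinib run Green and 17, 165 and 529 CPM in imatinib run Orange. The ranges of all 5 groups overlapped. NCOA4, the receptor that delivers ferritin for degradation, was listed at 0 reads in all 242 libraries under the identifier that the reference tables pair with the symbol (ENSG00000266412). The identifier is a row of the count table, but its pairing with the symbol comes from a later annotation than the one used for counting. Whether reads of the gene were counted under another identifier was not tested, so the 0 is not read as a level, and NCOA4 has no value in what follows.

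**Figure D1:**
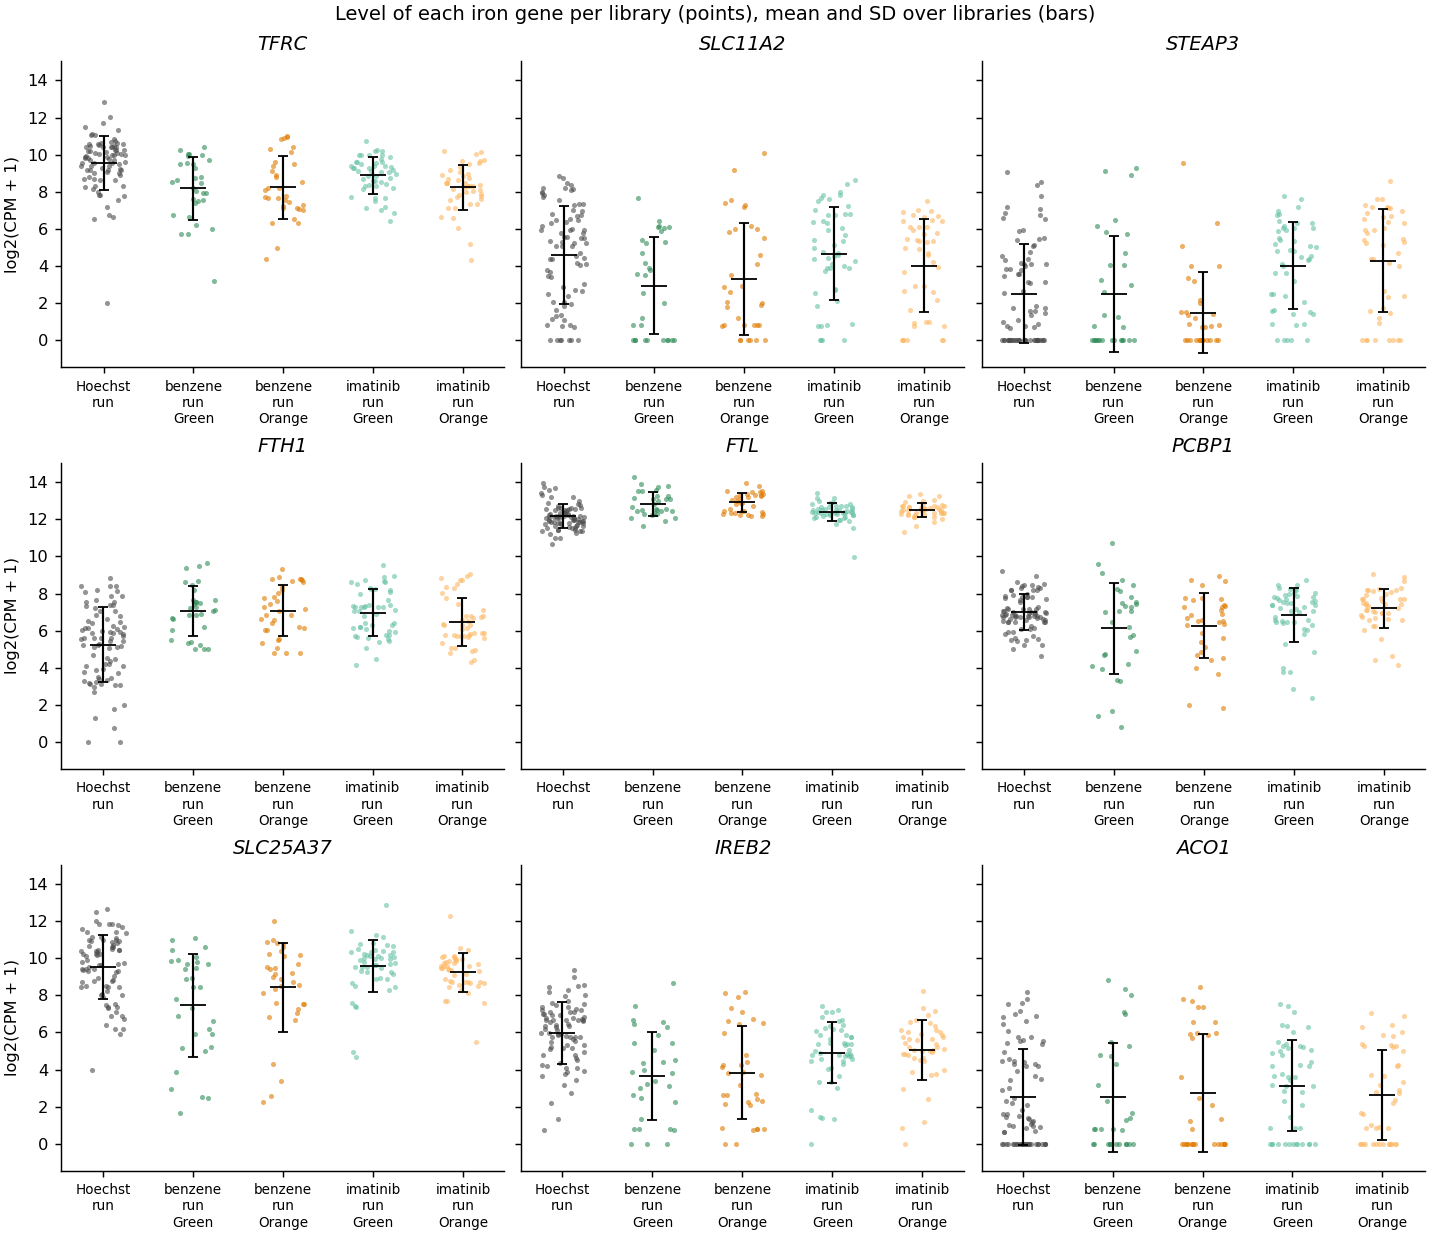
Level of the 9 members with reads, as log2(CPM + 1), in each library (points) of the 5 groups, with the mean and SD over libraries (black bars). FTL lies high and narrow in every group, with SDs of 0.39 to 0.65, while SLC11A2, STEAP3 and ACO1 run from 0 upward with SDs of 2.18 to 3.18.

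TFRC (ENSG00000072274, chr3:195739382-195809024), the transferrin receptor, was detected in every library kept. Its lowest, median and highest levels were 3.08, 907 and 7448 CPM in the Hoechst run, 8.02, 358 and 1373 CPM in benzene run Green, and 20.0, 245 and 2095 CPM in benzene run Orange. They were 84, 539 and 1684 CPM in imatinib run Green and 19.2, 322 and 1165 CPM in imatinib run Orange. The Hoechst run had the highest median, and all ranges overlapped. SLC25A37 (ENSG00000147454), mitoferrin-1, which carries iron into mitochondria for heme, had a similar level and was also detected everywhere. Its lowest, median and highest levels were 14.5, 842 and 6440.0 CPM in the Hoechst run, 2.20, 341 and 2164 CPM in benzene run Green, and 3.71, 490.1 and 4122 CPM in benzene run Orange. They were 24.2, 917 and 7358 CPM in imatinib run Green and 44.2, 691 and 4937 CPM in imatinib run Orange. The benzene run held the libraries with the lowest SLC25A37, and its SDs on the log2(CPM + 1) scale were the largest, 2.78 (Green) and 2.38 (Orange) against 1.03 to 1.74 in the other 3 groups. Among up to 200 genes of the most similar mean level in the same group, 161 of 200 to 199 of 200 (179 of 183 in the Hoechst run) had a smaller SD than SLC25A37. For FTL the corresponding counts were lower, 10 of 102 to 42 of 108. Few genes lie above FTL, so most of the genes set beside it had lower mean levels. The FTL counts are therefore not read as a spread small for its level. The larger spread in the benzene run was shared by the genes of similar level to SLC25A37. Their median SD was 1.87 (Green) and 1.40 (Orange) there, against 0.60 to 0.84 in the other 3 groups.

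The other uptake genes were low and detected in part of the libraries. SLC11A2 (ENSG00000110911, chr12:51373184-51422349), the transporter DMT1 that moves iron out of the endosome, was detected in 67 of 82 libraries (81.7%, exact 95% interval 71.6% to 89.4%) of the Hoechst run. In the benzene run it was detected in 18 of 31 (58.1%, 39.1% to 75.5%) Green and 21 of 34 (61.8%, 43.6% to 77.8%) Orange libraries. In the imatinib run it was detected in 42 of 50 (84%, 70.9% to 92.8%) Green and 33 of 45 (73.3%, 58.1% to 85.4%) Orange libraries. Its medians ran from 4.12 CPM in benzene run Orange to 34.8 CPM in the Hoechst run. STEAP3 (ENSG00000115107, chr2:119981407-120023228), the endosomal ferrireductase, was detected in 41 of 82 libraries (50%, 38.7% to 61.3%) of the Hoechst run. It was detected in 13 of 31 (41.9%, 24.5% to 60.9%) and 10 of 34 (29.4%, 15.1% to 47.5%) libraries of benzene run Green and Orange. In imatinib run Green and Orange it was detected in 39 of 50 (78%, 64% to 88.5%) and 33 of 45 (73.3%, 58.1% to 85.4%). Both imatinib run groups thus exceeded both benzene run groups, with intervals that overlapped only between imatinib run Orange and benzene run Green. Their medians of 21.8 and 37.4 CPM lay above 0.713 and 0.694 CPM. After each library was thinned to 500000 reads, STEAP3 was detected in 68% and 66.7% against 41.9% and 20.6%. The gap was not particular to STEAP3. Imatinib run libraries had more genes detected in all, medians of 8082 and 7797 against 5963 and 5859.5, and SLC11A2, IREB2 and ACO1 were also detected more often there. Summed STEAP3 levels did not follow the same order, at 40.3 and 61.3 CPM against 63.4 and 26.6 CPM. The intervals of the detection shares are binomial ones that treat the libraries of a group as independent draws, though these share a run. They therefore cover the counting of libraries only, not differences between runs.

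IREB2 and ACO1 encode the iron regulatory proteins, of which the second is also the cytosolic aconitase. IREB2 (ENSG00000136381, chr15:78729773-78793795) was detected in 80 of 82 libraries in the Hoechst run, 23 of 31 and 27 of 34 in the benzene run, and 46 of 50 and 42 of 45 in the imatinib run (Green and Orange). Its lowest, median and highest levels were 0.699, 73.7 and 647 CPM in the Hoechst run, 0, 13.3 and 399 CPM in benzene run Green, and 0, 12.4 and 287 CPM in benzene run Orange. They were 0, 31.5 and 173 CPM in imatinib run Green and 0, 35.9 and 301 CPM in imatinib run Orange. The Hoechst median was the highest and the benzene run medians were the lowest, with overlapping ranges. ACO1 (ENSG00000122729, chr9:32384601-32454767) was detected in 41.9% to 66% of libraries, with medians of 0.768 to 10.5 CPM and single libraries of up to 444 CPM. At 2702 reads or fewer per group, its sums rested on few libraries.

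Per kilobase of the main transcript, the order of summed levels had FTL first in all 5 groups, at 5642 to 9167 CPM per kilobase. SLC25A37 (116 to 282 CPM per kilobase), FTH1 (67.5 to 163), TFRC (80.3 to 211) and PCBP1 (75.9 to 119) took ranks 2 to 5 in an order that changed between groups. SLC11A2 (6.42 to 20.2 CPM per kilobase), STEAP3 (6.24 to 14.9), IREB2 (6.34 to 15.1) and ACO1 (2.74 to 7.04) took ranks 6 to 9. FTL was above SLC25A37 per kilobase in 100% of libraries of each group. Within the middle set neighbours did not differ beyond their spread in every group. SLC25A37 exceeded FTH1 in 35.5% to 84.1% of libraries, FTH1 exceeded TFRC in 19.5% to 67.6%, and TFRC exceeded PCBP1 in 35.6% to 75.6%. PCBP1 exceeded SLC11A2 in 87.8% to 95.6% of libraries, a mean difference of 3.05 to 3.87 on the log2 scale against an SD over libraries of 2.18 to 2.91. Among the low 4, SLC11A2 exceeded STEAP3 in 48.9% to 70.7% of libraries and IREB2 exceeded ACO1 in 58.1% to 85.4%.

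Cells with imatinib and Orange stain were compared with untreated Green cells of the same run. Drug and stain cannot be told apart there, and how fixation divided between the 2 groups is not known, so the differences are given without a cause. None of the 9 members passed a 2-fold difference, where 10.9% of 11416 genes compared did. Here and below the value is the log2 ratio of CPM of counts summed over a group, among genes that at least 20% of libraries detected in one group or the other, and its interval is the exact 95% Poisson one. That interval covers counting error only, since reads carry no molecular identifiers and the libraries of a group share a run. The largest differences were in uptake genes, and they ran in both directions. SLC11A2 was at 43.8 CPM (Orange) against 73 CPM (Green), a log2 ratio of −0.74 (−0.81 to −0.67). STEAP3 was at 61.3 against 40.3 CPM, a log2 ratio of 0.61 (0.53 to 0.68). TFRC was at 402 against 584 CPM, a log2 ratio of −0.54 (−0.56 to −0.51), and SLC25A37 at 758 against 1060.2 CPM, a log2 ratio of −0.48 (−0.50 to −0.47). In TFRC the Orange library was the higher in 33.9% of all pairs of 1 Orange and 1 Green library, and the difference in mean log2(CPM + 1) of −0.65 was smaller than the pooled SD over libraries of 1.11. FTL (0.09), IREB2 (0.09) and PCBP1 (0.15) had log2 ratios near 0, FTH1 was at −0.35 and ACO1 at −0.38. The median log2 ratio was −0.35 over the members and −0.02 over all genes compared.

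In the benzene run, SLC11A2 and STEAP3 passed 2-fold between Orange and Green cells, 2 of 9 members where 26.6% of 10072 genes did. SLC11A2 was at 83.4 CPM in the sum of Orange libraries and 26.5 CPM in that of Green libraries, a log2 ratio of 1.65 (1.56 to 1.75). A single Orange library at 1075 CPM held 42.5% of the Orange reads of SLC11A2, and the median Orange library was at 4.12 CPM against 10.6 CPM in Green. Without the highest library of each group the log2 ratio was 1.24, and the difference in mean log2(CPM + 1) was 0.37 against an SD over libraries of 2.82. STEAP3 was at 26.6 CPM against 63.4 CPM, a log2 ratio of −1.25 (−1.35 to −1.16). A single Orange library held 79% of its Orange reads, and without the highest library of each group the log2 ratio was −2.91. With libraries limited to 60% of reads in their top 500 genes (22 Orange, 19 Green) the STEAP3 ratio changed sign, to 2.34. Both differences thus rested on a few libraries with many reads. The ferritin chains were at the same summed level in the 2 groups, with log2 ratios of 0.01 for FTL (0.00035 to 0.0139) and 0.01 for FTH1 (−0.04 to 0.05). SLC25A37 (0.50), IREB2 (0.37) and TFRC (0.30) were higher in Orange, and PCBP1 was lower (−0.65). Each of these had a difference in mean log2(CPM + 1) smaller than the SD over libraries, and for PCBP1 that difference was 0.14, of the opposite sign, with 26.2% of its Green reads in 1 library.

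**Figure D2:**
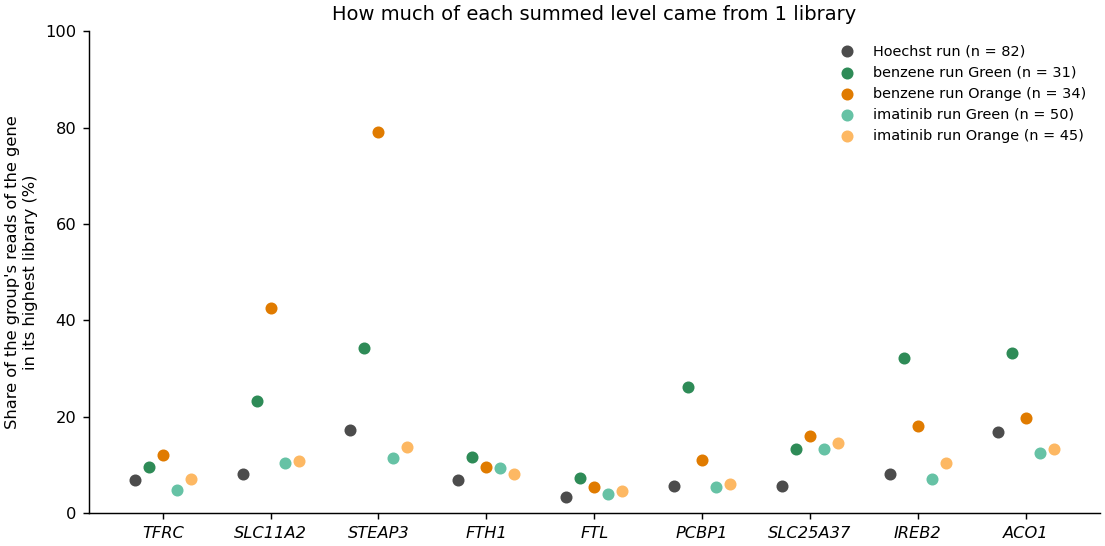
Share of a gene's reads in a group that came from its highest library, for each member and group. For STEAP3 and SLC11A2 in benzene run Orange 1 library held 79% and 42.5% of the reads, while for FTL no library held more than 7.21%.

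The Hoechst run was set against the untreated Green cells of each CellTracker run, and the Green cells of both CellTracker runs were set against each other. These 3 comparisons share groups, so their values are given side by side and are not independent. Against benzene run Green 6 of 9 members passed 2-fold, where 41.9% of 11052 genes did. Against imatinib run Green 2 of 9 did, where 37.7% of 11719 genes did. Between the Green cells of the CellTracker runs 1 of 9 did, where 35.3% of 11098 genes did. The median log2 ratio of all genes compared was 0.28, 0.14 and 0.14 in these comparisons. Scaled by ERCC reads the same medians were −0.12, 0.89 and −1.02. As differences in mean log2(CPM + 1) they were 0.62, −0.18 and 0.75, and members' differences on that measure are to be read beside these.

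FTH1 was lower and IREB2 higher in the Hoechst run than in either Green group. FTH1 was at 81.2 CPM in the Hoechst run against 196 CPM in benzene run Green, a log2 ratio of −1.27 (−1.31 to −1.22), and against 178 CPM in imatinib run Green, a log2 ratio of −1.13 (−1.17 to −1.09). The Hoechst library was the higher in 24.3% and 24.4% of pairs of libraries, and the differences in mean log2(CPM + 1) of −1.81 and −1.72 exceeded the pooled SDs over libraries of 1.71 and 1.68. IREB2 was at 95.2 CPM in the Hoechst run against 40.1 CPM in benzene run Green, a log2 ratio of 1.25 (1.17 to 1.32), and against 45.8 CPM in imatinib run Green, a log2 ratio of 1.06 (1.00 to 1.12). Its differences in mean log2(CPM + 1) were 2.32 and 1.06 against SDs of 2.06 and 1.65. Over all genes compared the median of such differences was 0.62 and −0.18, and neither the FTH1 nor the IREB2 values are corrected for it. The directions of both genes held under every scaling tried, but not every call did. On the ERCC scale FTH1 was at −1.67 and −0.38 and IREB2 at 0.85 and 1.81. With TMM scaling IREB2 was at 0.97 and 0.91, and with DESeq2 scaling at 0.83 and 0.84, short of 2-fold against both Green groups. Reads were 100 bases long in the Hoechst run and 75 bases in the CellTracker runs. At 100 bases 22.6% of FTH1 windows had a copy elsewhere, against 33.7% at 75 bases, and the part of read length in the FTH1 difference was not tested.

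TFRC was at 1059.5 CPM in the Hoechst run against 463 and 584 CPM in benzene run and imatinib run Green, log2 ratios of 1.19 (1.17 to 1.22) and 0.86 (0.84 to 0.88). Relative to the median of all genes these ratios are smaller, and on the ERCC scale they were 0.79 and 1.61. SLC25A37 was at 1316 CPM against 542 and 1060.2 CPM, log2 ratios of 1.28 (1.26 to 1.30) and 0.31 (0.30 to 0.33). Against benzene run Green, TFRC also fell short of 2-fold with TMM (0.92) and DESeq2 scaling (0.78). SLC25A37 fell short with DESeq2 scaling (0.86) and per ERCC read (0.88), but not with TMM (1.00). SLC11A2 was at 79 CPM against 26.5 and 73 CPM, log2 ratios of 1.57 (1.48 to 1.67) and 0.11 (0.06 to 0.17). For both of these transporters the gap to benzene run Green was the larger. That group is then the lower of the 2 Green groups by arithmetic, which is not a separate observation. Between the Green groups SLC11A2 passed 2-fold, with a log2 ratio of imatinib run to benzene run Green of 1.46 (1.37 to 1.56), and SLC25A37 was at 0.97 (0.94 to 0.99). On the ERCC scale the last 2 ratios were 0.31 and −0.19, so the direction of SLC25A37 between the Green groups changed with the scaling. STEAP3 between the Green groups had a log2 ratio of −0.65 on the sums and a difference in mean log2(CPM + 1) of 1.51, where the median over all genes was 0.75. Its direction thus depended on whether reads or libraries were weighted equally.

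FTL was at 4915 CPM in the Hoechst run against 7945 and 5663 CPM, log2 ratios of −0.69 and −0.20, of which the second became 0.55 on the ERCC scale. The Hoechst library was the higher in 22.0% of pairs of libraries with benzene run Green, and the difference in mean log2(CPM + 1) of −0.69 exceeded the SD over libraries of 0.65. PCBP1 had log2 ratios of −0.37 and −0.04, but differences in mean log2(CPM + 1) of 0.85 and 0.12, and its ratio to benzene run Green was −0.03 without the highest library of each group. STEAP3 had log2 ratios of −0.86 and −0.21 and differences in mean log2(CPM + 1) of 0.01 and −1.50, and with the 60% limit its ratio to benzene run Green was 2.12. Per ERCC read both genes were higher in the Hoechst run than in imatinib run Green (0.71 for PCBP1 and 0.54 for STEAP3). No direction is given for either gene. ACO1 passed 2-fold against benzene run Green, with a log2 ratio of −1.01 (−1.10 to −0.93), but not without the highest library of each group (−0.73), and its difference in mean log2(CPM + 1) was 0.03. Against imatinib run Green ACO1 was at −0.04.

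**Figure D3:**
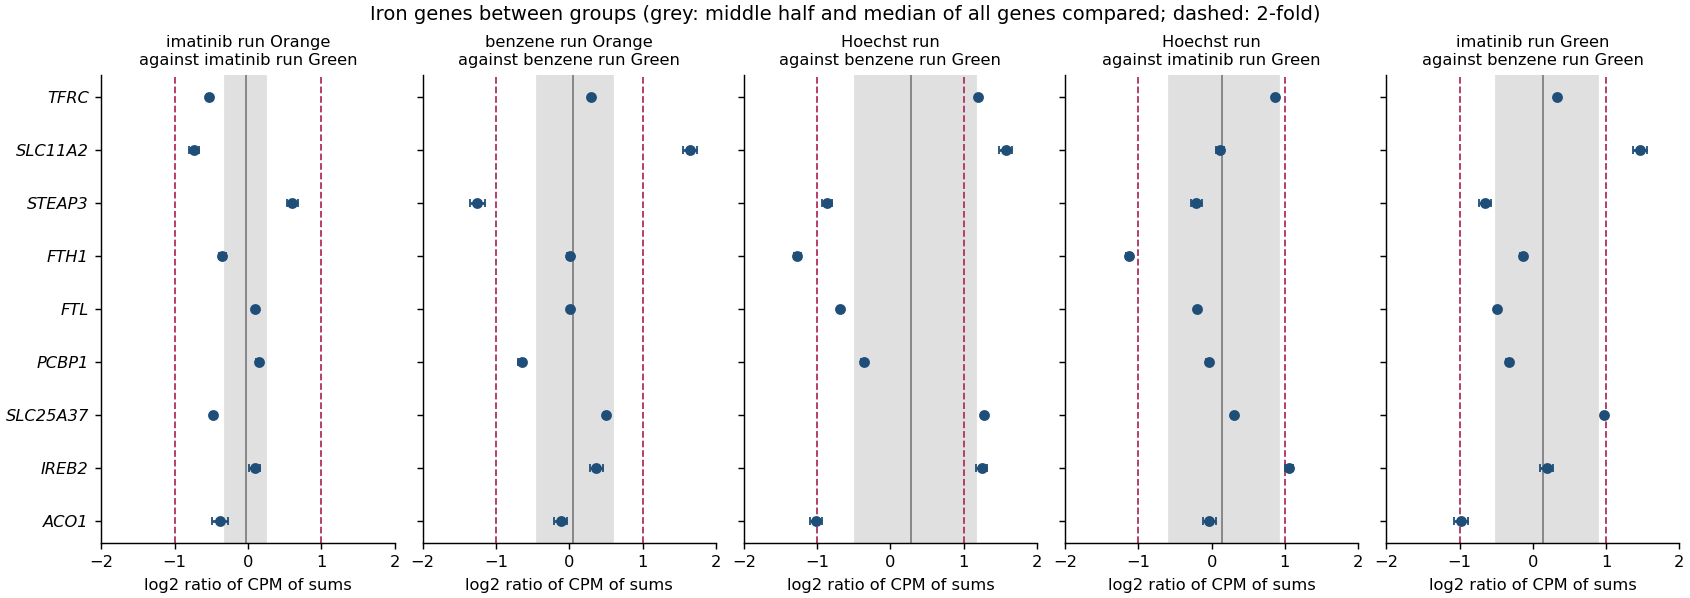
Log2 ratio of the CPM of summed counts for each member in the 5 comparisons (points, with exact 95% Poisson intervals that cover counting error only), beside the middle 50% (grey band) and median (grey line) of all genes compared and the 2-fold limits (dashed). No member lies past 2-fold in the imatinib run, and FTH1 lies past it on the lower side in both Hoechst comparisons.

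A wider list of 64 genes of iron handling was read in the same way. It was chosen with earlier results of these data known. Of these, 49 could be compared in the imatinib run, where 1 was higher and 1 lower past 2-fold in Orange cells, 4.08% of those compared beside the 10.9% of all genes. They were HFE, a partner of the transferrin receptor (7.66 against 1.60 CPM, detected in 20.0% and 8% of libraries), and CPOX, an enzyme of heme synthesis (4.09 against 21.1 CPM). In the benzene run 3 of 44 were higher in Orange cells, FDX1, IBA57 and PPOX, and 4 were lower, together 15.9% beside the 26.6% of all genes. FDX1, a ferredoxin of mitochondria, was at 35.7 against 7.12 CPM. The largest differences on the lower side were in both exporter genes called. They were HEPH, a ferroxidase (66.1 against 234 CPM), and SLC40A1, ferroportin (32.1 against 102 CPM). SLC25A28, mitoferrin-2, followed (5.11 against 13.2 CPM). For IBA57 and SLC40A1 detection ran against the summed level. IBA57 was detected in 14.7% of Orange and 22.6% of Green libraries, and SLC40A1 in 50% and 45.2%. For FDX1, PPOX, HEPH and SLC25A28 detection ran in the same direction as the sums. How far any of these sums rested on a single library was not tested. The median log2 ratio over the list was −0.11 in the imatinib run and 0.13 in the benzene run, beside −0.02 and 0.05 over all genes compared.

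Against benzene run Green, 10 of 47 genes of the list were higher and 10 lower in the Hoechst run, together 42.6% beside the 41.9% of all genes. Of the 9 genes of heme synthesis 2 were higher and 5 lower, where 28.9% of all genes were higher and 13% lower, and their median log2 ratio was −1.09 beside 0.28 over all genes. No test was made of this, and the list was not chosen independently of these data. The 3 largest in each direction were IBA57, EPAS1 and CPOX on the higher side (log2 ratios of 3.25, 3.17 and 2.40) and TF, FECH and FDXR on the lower side (−2.99, −1.74 and −1.40). Among the 3 largest in each direction, detection ran against the ratio for FDXR only (37.8% of Hoechst and 12.9% of benzene run Green libraries). FECH, ferrochelatase, which inserts iron into heme, was at 78.5 CPM in the Hoechst run against 263 CPM. Against imatinib run Green 5 of 48 were higher and 6 lower, together 22.9% beside the 37.7% of all genes, led by EPAS1, FLVCR1 and GLRX5 (2.14, 1.46 and 1.22) and by STEAP1, HMOX2 and ALAS2 (−4.93, −2.17 and −2.04). The erythroid ALAS2, which starts heme synthesis, was at 34 CPM in the Hoechst run, 84.8 and 5.17 CPM in benzene run Green and Orange, and 139.97 and 128 CPM in imatinib run Green and Orange. Fewer than 20% of libraries detected ALAS2 in either benzene run group. Its sums there rest on few libraries, and it was not compared between those 2 groups. Between the Green groups 13 of 49 were higher in the imatinib run and 5 lower, together 36.7% beside the 35.3% of all genes, with IBA57, CPOX and ISCA1 the largest on the higher side (4.2, 1.91 and 1.89) and TF and HEPH among the lower (−5.04 and −1.35).

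Co-expression over libraries was described within each group by Spearman's correlation of CPM, averaged over the 5 groups, for the 7 members that at least 50% of libraries detected in every group. The libraries of a group share a run and differ in depth and in the number of genes detected, so the correlations are compared with those of all pairs of 4697 genes detected as often. Of the 21 pairs of members 0 reached a mean correlation of 0.3, where 0.714% of 11028556 pairs of genes did. The median over the members' pairs was 0.01, beside 0.03 over all pairs. The largest positive values were 0.18 for FTH1 and FTL, 0.15 for SLC11A2 and SLC25A37, and 0.15 for TFRC and SLC25A37. Of these the ferritin chains were at −0.05 in imatinib run Green and up to 0.49 in benzene run Green. The only pairs positive in all 5 groups were those among TFRC, SLC11A2 and SLC25A37, 3 of the 21. Their means were not unusual, since 75.4% to 89.4% of all pairs of genes had a lower one. The share of all pairs of genes positive in all 5 groups was not counted.

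The most negative pair was FTL with SLC25A37, at a mean of −0.34, and only 0.0619% of all pairs of genes had a lower value. It was negative in each group, at −0.25 in the Hoechst run (n = 82), −0.21 in benzene run Green (n = 31), −0.60 in benzene run Orange (n = 34), −0.24 in imatinib run Green (n = 50) and −0.40 in imatinib run Orange (n = 45). Libraries with much mitoferrin-1 RNA therefore tended to have a smaller share of FTL reads, as the plot of both genes by library shows. Given the number of genes detected the mean was −0.35, and without the 2 libraries farthest from the median it was −0.32. Without libraries over 10000 genes it was −0.30. With no library left out for its top 500 genes it was −0.18. FTL also correlated with the share of ERCC reads (mean −0.38, from −0.62 to −0.09) and of mitochondrial reads (mean −0.30), and SLC25A37 did so weakly with the opposite sign (means 0.13 and 0.06). The part of these shares in the pair's correlation was not tested. How many genes were as negative with FTL was not counted, so the pair's value is not read as particular to iron genes. TFRC and FTL were at a mean of −0.17, which rested on benzene run Orange (−0.59), with values from −0.15 to 0.02 in the other 4 groups.

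**Figure D4:**
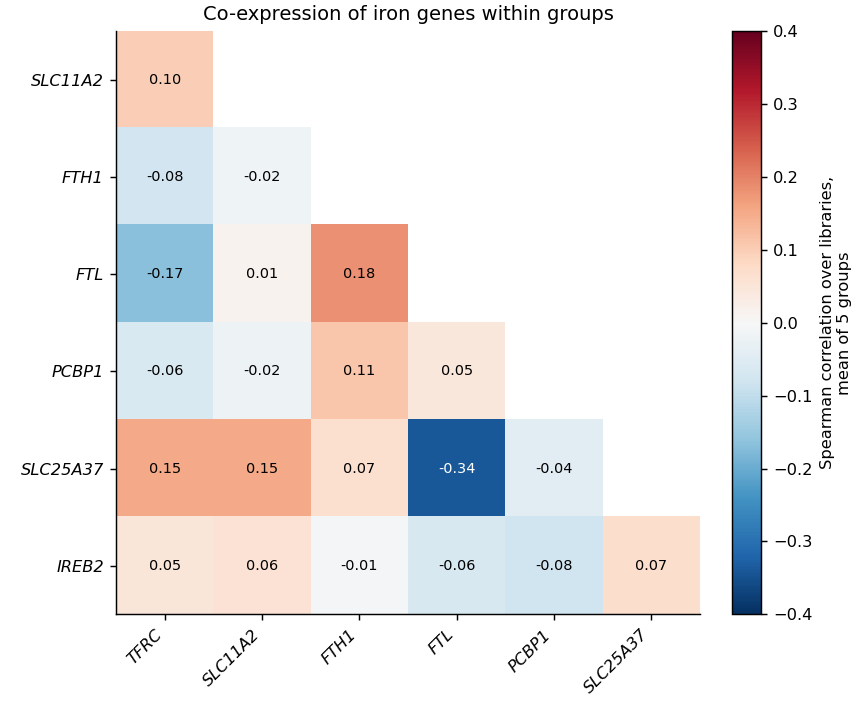
Mean over 5 groups of Spearman's correlation over libraries, for each pair of the 7 members that at least 50% of libraries detected in every group. FTL with SLC25A37 is the only pair beyond 0.3 in size, at −0.34.

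**Figure D5:**
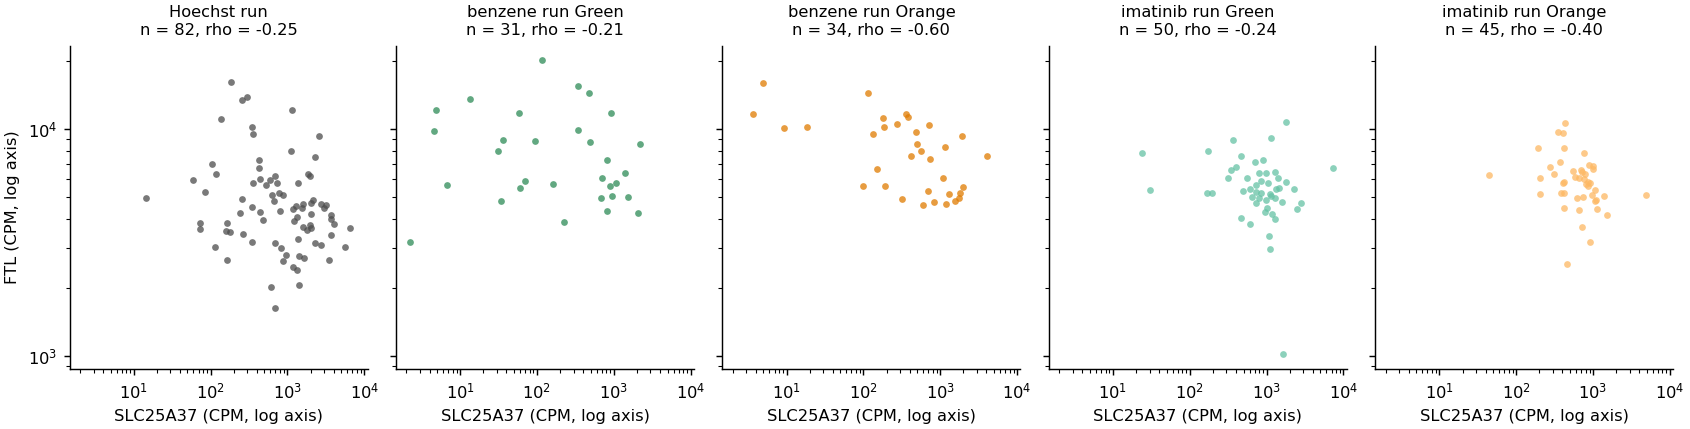
FTL against SLC25A37 in CPM (both axes logarithmic) for each library of the 5 groups, with the number of libraries and Spearman's rho. The correlation is negative in each group, from −0.60 in benzene run Orange to −0.21 in benzene run Green.

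The genes most like each member were sought among the same 4697 genes by the same mean correlation. For the ferritin chains the nearest were their own pseudogenes, FTH1P7, FTH1P2 and FTH1P11 for FTH1 (means of 0.87, 0.81 and 0.74) and FTLP3 for FTL (0.93). Whether the reads on these rows came from the parent transcripts was not tested. After FTLP3 the nearest to FTL were RPLP0, a ribosomal protein (0.71), and EEF1A1P6, a pseudogene of an elongation factor (0.70). The other members had no such close neighbour. TFRC was nearest to MARCHF6, POLG2 and DDX5 (0.37, 0.35 and 0.34), and SLC25A37 to OGT, LUC7L3 and CCNL2 (0.36, 0.35 and 0.33). SLC11A2 was nearest to TEX30, LGALS8 and XPR1 (0.32, 0.30 and 0.30), PCBP1 to PKM, MRPS35 and UBE4A (0.30, 0.30 and 0.30), and IREB2 to PDXDC1, RPS6KA3 and LRPPRC (0.29, 0.28 and 0.28). Of 168 pairs of a member with 1 of the 24 genes of the wider list detected as often, 3 reached 0.3 (1.79%, beside 0.714% of all pairs of genes), and all 3 held FTL. They were BLVRB, biliverdin reductase B of heme breakdown (0.46, from 0.20 to 0.66), NFU1, an iron-sulphur scaffold (0.36), and UROD, an enzyme of heme synthesis (0.32). These values are below those of FTL with RPLP0 and EEF1A1P6. How many of the 4697 genes reached 0.3 with FTL was not counted, so the 3 are not read as a link particular to iron or heme genes.

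In the 21 libraries left out for their top 500 genes the members were mostly low. In the 14 of the Hoechst run FTL had a median of 155 CPM (7.31 to 2791 CPM), FTH1 was detected in 1, TFRC in 13 and SLC25A37 in 13. TFRC was at a median of 209 CPM there. In the 5 of benzene run Green FTL had a median of 3031 CPM and FTH1 was detected in 2.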

How the data were processed

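SMARTer cDNA libraries of K562 cells, single cells from the Fluidigm C1 and some bulk samples that were not told apart here, were analysed from the counts per gene that the authors deposited. The study's methods state skewer for trimming, HISAT2 for alignment (GRCh37 plus the ERCC spike-ins) and featureCounts on Ensembl genes for counting, restricted to uniquely mapped reads (Subread 1.5.0 per the submitters' processing notes), per library. The authors' CPM table was not used, and 4 count columns that matched no library title were left out. Gene names and coordinates came from GENCODE v44lift37, which named 55665 of 63677 identifiers, with 99.0% of reads.

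Python 3.11.15, numpy 2.4.6, pandas 2.3.3, scipy 1.17.1 and matplotlib 3.10.9 were used, with scaling factors from edgeR 4.0.16 and DESeq2 1.42.0 in R 4.3.3 as alternatives. Libraries whose top 500 genes took over 70% of reads were excluded. CPM is per 1000000 reads on genes. Levels per kilobase used the length of the Ensembl canonical transcript. Calls were at least 2-fold on summed counts, with no test. Named were the members, up to 3 genes of the wider list a direction, the 3 nearest genes and the 3 pseudogenes with most reads. The markers given and the wider-list genes paired with FTL were named after their values were seen. A wider-list gene that the rule names is not reported here. The members and lists were chosen with earlier results of these data known. The ratio and correlation steps were tested on simulated data. No libraries had identical counts.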

Additional observations from a re-analysis of the deposited data

How the results depend on the processing

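No paired analysis was possible because library numbers pair nothing across groups. Of 904 alternative values over 127 results, 849 stayed within the spread over libraries or 1.5 times a count, 53 moved further and 2 past 2-fold changed sign, namely STEAP3 in the benzene run (2.34 with the 60% limit) and ACO1 in the Hoechst run against benzene run Green (0.0312 as a difference in mean log2(CPM + 1)). Counting ratios short of 2-fold as well, 45 of 450 alternative log2 ratios of members between groups had the opposite sign, in 20 of 45 ratios, 7 of them per ERCC read and 11 with mean log2(CPM + 1). The number of members past 2-fold in the benzene run was 1 with mean log2(CPM + 1) and 0 with mean log2(CPM + 10), against 2. Hoechst against imatinib run Green gave 1 with all libraries, mean log2(CPM + 10), TMM or DESeq2 scaling, against 2. Between the Green groups it was 3 with the 60% limit, 2 without libraries over 10000 genes, 4 with mean log2(CPM + 1), 2 with TMM, 2 with DESeq2 and 5 per ERCC read, against 1. Without a filter on detection the shares of all genes past 2-fold were 48%, 58.4%, 72.4%, 66% and 63.5% in the order of the text, and at 1.5-fold 25.3%, 46.1%, 59.9% and 56% in 4 of them, all but the third. The causes were not tested. Detection thresholds of 1 and 10 reads moved 14 and 7 of 45 detection shares. Lengths of all annotated exons in place of the main transcript kept FTL at rank 1. The partial correlations, those without the 2 farthest libraries and the exon lengths were chosen after seeing the data.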
